A study of Mus musculus with 8 samples.

Results

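H3K9me3 was measured by ChIP-seq in whole crypt isolates of the mouse colon, and the peaks described here are those at which the input library of WT mice held the most reads for their width. They were chosen by the WT input value, which was converted back to reads and divided by the width of the peak. The highest 1% of the 53216 autosomal peaks was taken, which gave 532 of the 53761 peaks of the table. The KO mice carried a *Vil-Cre*-mediated KO of *Smarcad1* and the WT mice were labelled wildtype, all on a C57BL/6 background. For each genotype there were 3 libraries of ChIP DNA and a single library of input DNA. *Vil-Cre* acts in the intestinal epithelium, so any other cells in a crypt isolate kept *Smarcad1*. The methods describe the mice as males, ages were not given in the labels, and nothing in the labels says whether the WT mice carried the floxed allele or Cre. The study's legends call the ChIP libraries biological replicates, and the labels do not say how many mice each came from.

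Input is sheared chromatin that was sequenced without immunoprecipitation, and at most places its read density follows the number of DNA copies whose reads can be placed there. A stretch of genome that is present in many copies in the mouse and in few copies in the reference can collect the reads of all its copies. Tandem satellite DNA near the centromeres, the ribosomal DNA arrays and recently duplicated gene clusters are well known for this. Constitutive heterochromatin over such repeats carries H3K9me3, and Smarcad1 is a SWI/SNF-like chromatin remodeller that is known to help keep heterochromatin through replication.

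Sequences of some members, among them the densest, are printed here, and all are the GRCm38 reference read at the coordinates given. They do not stand for the members in general: the repeat printed first aligned to 10 of the 532. The peak chr9:3034501-3039600 lies close to the first sequenced base of chromosome 9 and repeats itself with a period of 234 bases, close to the unit length known for the mouse major satellite. Its first 234 bases (chr9:3034501-3034734), the next 234 bases (chr9:3034735-3034968, capitals mark the 13 bases that differ from the first copy at the same place) and the best-aligned stretches of 3 other members follow. Those members are chr14:19415251-19420200 (bases 19419263 to 19419496, minus strand), chr9:35304751-35306100 (bases 35305259 to 35305492, minus strand) and chr2:98661751-98665650 (bases 98663719 to 98663949, plus strand), and capitals mark bases that differ from the first copy in the alignment.
chr9 array, first copy: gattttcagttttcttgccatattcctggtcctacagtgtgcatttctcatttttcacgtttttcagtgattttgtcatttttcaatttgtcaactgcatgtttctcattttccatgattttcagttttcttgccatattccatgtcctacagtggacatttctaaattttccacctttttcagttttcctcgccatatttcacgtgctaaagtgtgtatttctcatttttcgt
chr9 array, next copy: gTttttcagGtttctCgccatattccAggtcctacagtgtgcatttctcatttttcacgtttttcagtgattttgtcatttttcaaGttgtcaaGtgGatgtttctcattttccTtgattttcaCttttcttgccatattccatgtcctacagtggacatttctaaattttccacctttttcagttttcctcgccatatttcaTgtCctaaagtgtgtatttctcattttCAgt
chr14 member: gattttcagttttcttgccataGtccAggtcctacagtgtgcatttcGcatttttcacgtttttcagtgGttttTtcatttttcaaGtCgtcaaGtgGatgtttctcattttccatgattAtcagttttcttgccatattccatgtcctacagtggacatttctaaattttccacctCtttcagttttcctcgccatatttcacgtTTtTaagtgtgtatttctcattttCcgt
chr9 member at 35.3 Mb: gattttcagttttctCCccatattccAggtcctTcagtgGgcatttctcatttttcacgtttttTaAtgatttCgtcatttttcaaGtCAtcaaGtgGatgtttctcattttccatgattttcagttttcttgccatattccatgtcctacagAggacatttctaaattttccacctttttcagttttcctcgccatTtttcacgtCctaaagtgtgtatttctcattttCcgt
chr2 member: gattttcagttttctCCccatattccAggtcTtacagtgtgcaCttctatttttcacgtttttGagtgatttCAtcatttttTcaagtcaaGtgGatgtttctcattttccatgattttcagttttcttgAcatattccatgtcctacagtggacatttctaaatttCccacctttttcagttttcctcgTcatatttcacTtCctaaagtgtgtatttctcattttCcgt
Identity to the first copy was 94.4% for the next copy, 93.6% for the chr14 stretch, 92.7% for the chr9 stretch outside the array and 91.1% for the chr2 stretch. The same repeat unit was thus found on 3 chromosomes among the 4 members with the most input reads per kb, the exception being the one on chromosome 17.

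That member, chr17:39839851-39849300, holds ribosomal DNA: GENCODE vM21 places an rRNA gene (CT010467.1, chr17:39846353-39848827) in it and RefSeq the 18S copy *Rn18s-rs5*. A stretch inside the rRNA gene (chr17:39846953-39847192, plus strand) is printed with its 21 CG dinucleotides in capitals. Beside it stand the middle of the fifth densest member, in an intron of *Aida* (chr1:183299281-183299520), with 6 CG, and the middle of the last member inside the threshold, in an intron of *Nphs1* (chr7:30472531-30472770), with 2 CG.
chr17 ribosomal member: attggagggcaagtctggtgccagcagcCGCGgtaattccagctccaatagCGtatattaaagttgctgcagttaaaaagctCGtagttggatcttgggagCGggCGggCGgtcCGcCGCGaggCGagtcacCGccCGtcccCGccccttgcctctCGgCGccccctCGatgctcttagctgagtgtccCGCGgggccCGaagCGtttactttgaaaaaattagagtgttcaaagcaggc
chr1 *Aida* member: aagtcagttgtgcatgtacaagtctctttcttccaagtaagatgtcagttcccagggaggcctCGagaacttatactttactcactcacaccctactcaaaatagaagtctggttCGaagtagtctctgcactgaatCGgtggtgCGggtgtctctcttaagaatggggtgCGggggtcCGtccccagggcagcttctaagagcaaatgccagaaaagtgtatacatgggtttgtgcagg
chr7 *Nphs1* member: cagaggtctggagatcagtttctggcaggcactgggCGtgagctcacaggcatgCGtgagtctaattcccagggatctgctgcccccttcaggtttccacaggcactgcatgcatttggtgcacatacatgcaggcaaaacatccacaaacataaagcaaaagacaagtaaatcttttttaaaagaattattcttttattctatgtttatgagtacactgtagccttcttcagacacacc

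The 532 members fell into a small set of peaks at which both inputs were dense and a large set at which only the WT input was. Of the 532, 90 were also in the highest 1% by KO input density, and these are called dense in both inputs below. The other 442 were dense in the WT input only. WT input chose all members and KO input made the division, so the input values that follow are descriptions and were not tested, and with 1 input library per genotype they have no replicate check.

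The 90 members dense in both inputs were mostly wide, with a median of 1500 bp, and held a median of 88.5 WT and 83 KO input reads. Among them, 13 were 300 bp wide and held 10 or fewer WT input reads. The median density of the 90 was 29.5 WT and 30.7 KO reads per kb, against 9.17 and 8.57 over all autosomal peaks. The 442 members dense in the WT input only had a median width of 300 bp, the smallest width in the table, and a median of 7 WT and 3 KO input reads. Their median density was 20.0 WT and 6.67 KO reads per kb, and at 236 of them the KO density was at or under the median of all peaks. The large set and the 13 narrow members of the small set rested on a few reads per peak. The lower KO density of the large set is partly fixed by the division.

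**Figure D1:**
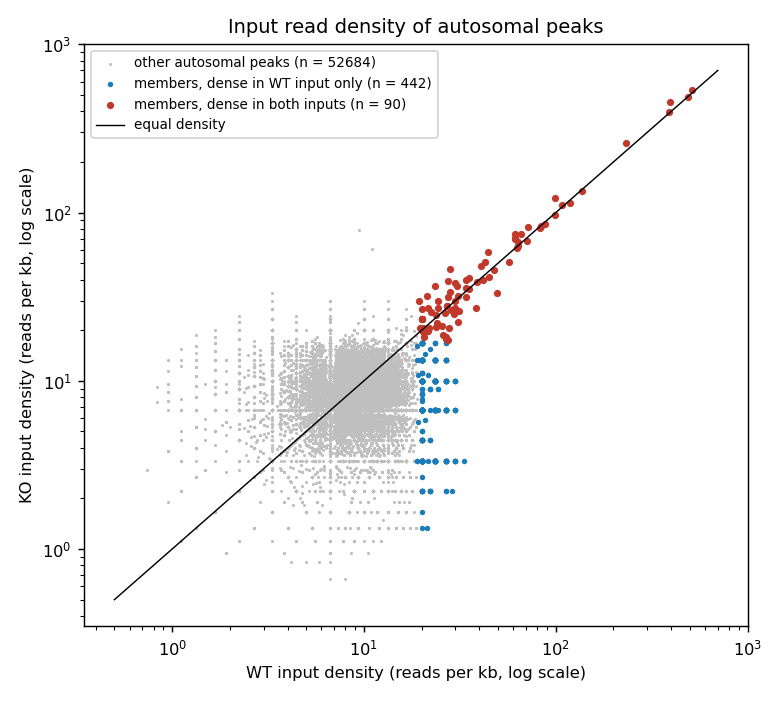
Input density of every autosomal peak in reads per kb on log axes, WT on the horizontal and KO on the vertical axis, with the line of equal density. The 90 red points follow the line up to 511 WT reads per kb, while the 442 blue points lie below it at 18.9 to 33.3 WT reads per kb.

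Choosing by the KO input gave the mirror image. The 442 peaks in the highest 1% by KO input alone had a median of 20.0 KO and 8.89 WT reads per kb. Their pooled KO to WT input ratio was 2.58 (95% exact interval 2.46 to 2.71), against 0.411 (0.386 to 0.437) for the 442 members dense in the WT input only. This ratio is KO reads over WT reads, divided by the ratio of both inputs' totals over autosomal peaks (688059 KO and 729886 WT reads), and its intervals cover counting error only. For the 90 members dense in both inputs the ratio was 1.08 (1.06 to 1.10), and for all 532 members it was 0.992 (0.975 to 1.01).

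The large set lay mainly among the narrowest peaks. Of the 3456 autosomal peaks 300 bp wide, 10.6% were members, against 2.10% of those of 450 bp, 0.110% of those from 600 bp to under 1200 bp and 0.316% of the wider ones. At 300 bp a peak needs 6 reads to pass, which gives exactly 20.0 reads per kb, as do 9 reads at 450 bp. This density was shared by 264 members of different widths. The last members inside the threshold were chr7:15331051-15331950 and chr7:30472201-30473100, each with 17 WT reads over 900 bp (18.9 reads per kb) and 3 KO reads. The first peak outside, chr8:80964301-80965200, had the same 17 WT reads over 900 bp and 7 KO reads and lost by table order, and the next, chr4:147506701-147513000, had 118 WT and 106 KO reads at 18.7 and 16.8 reads per kb.

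The members held 3.56% of the WT and 3.53% of the KO input reads of autosomal peaks on 0.781% of their bases. The 90 dense in both inputs accounted for 3.08% and 3.33% of the reads on 0.570% of the bases. Among these 90, 8 exceeded 100 reads per kb, 15 lay between 50 and 100, and 30 lay under 25. The 4 with the most WT reads held 38.5% of the WT reads of the 90.

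The densest member was chr9:35304751-35306100, in an intron of the long noncoding RNA gene *Gm33838*, with 690 WT and 722 KO reads, or 55.8 times the median WT density. It was followed by chr14:19415251-19420200 at *AC242409.1* (*Gm21738* in GENCODE), with 2414 WT and 2408 KO reads, in which 496 bases are an assembly gap. The ribosomal member on chromosome 17 held the most reads of all members, 3720 in WT and 4282 in KO, and chr2:98661751-98665650 at *Gm10801* held 1514 and 1541. Each of these 4 stood over 40 times above the median density in both inputs.

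The fifth, chr1:183298651-183300150 in an intron of *Aida*, which encodes an axin-interacting protein, held 348 WT and 388 KO reads and spans a gap of 100 bases. Then came chr4:70377601-70378800 in an intron of *Cdk5rap2*, a centrosome protein gene, with 165 WT and 161 KO reads, and chr9:2999551-3007950 at *Gm10722*, which covers the first sequenced bases of chromosome 9, with 999 and 961. The next were introns of *Kctd16*, an auxiliary subunit of GABA-B receptors, on chromosome 18 (130 and 134 reads), an exon of *Chl1*, a neural cell adhesion gene, at chr6:103648501-103649850 (134 and 130), and chr11:109011151-109012500 with no GENCODE gene (134 and 164). Down to the tenth, the density was at least 10.8 times the WT median.

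The inputs of both genotypes were compared at the members with enough reads for a ratio. Of the 61 members with at least 50 WT reads, the scaled KO to WT ratio ran from 0.719 to 1.60 with a median of 1.05, and the 95% interval held 1 at 54 of them and lay above 1 at 7. At the ribosomal member, which held the most reads, it was 1.22 (1.17 to 1.28). The highest ratios were 1.60 (1.11 to 2.33) in an intron of *Smo*, the Hedgehog signal transducer, at chr6:29747101-29749500, 1.40 (0.986 to 1.99) at the RNA-binding protein gene *Zc3h7a* on chromosome 16, 1.33 (0.907 to 1.95) at chr6:3200551-3202950, 1.30 (1.03 to 1.64) at the chromosome 11 member above, and 1.29 (0.971 to 1.72) at chr11:54139651-54141150.

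The lowest ratios were 0.719 (0.469 to 1.09) at *Gm15564* on chromosome 16, 0.741 (0.473 to 1.15) at chr15:103887601-103890150, 0.747 (0.541 to 1.03) at *AW822073* on chromosome 10, 0.773 (0.543 to 1.09) at chr1:85096651-85099800 and 0.786 (0.509 to 1.20) at the pseudogene *Gm8357* on chromosome 1. All of these lowest intervals held 1. The inputs are 1 library each, so a difference between genotypes and a difference between these libraries cannot be told apart.

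Repeats of a peak within the reference were counted with words of 31 bases over its central 1000 bases. The median share of words found more than once in the C57BL/6J reference was 30.8% in the 90 members dense in both inputs, 6.36% in the 442 dense in the WT input only and 9.07% over all autosomal peaks. Over 50% of the words were repeated at 28 of the 90 (31.1%), at 84 of the 442 and at 10.8% of all peaks. With words of 21 bases these shares became 52.2%, 33.9% and 25.7%. Some dense members held few repeated words. Of the 23 members above 50 reads per kb, 6 had over 50% of their words repeated and 3 under 5%, namely *Cdk5rap2* at 2.47%, the chromosome 11 member at 4.95% and the ribosomal member at 0%. Over the whole peak the ribosomal member reached 27.6%, against 2.05% at *Cdk5rap2* and 3.64% at the chromosome 11 member.

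**Figure D2:**
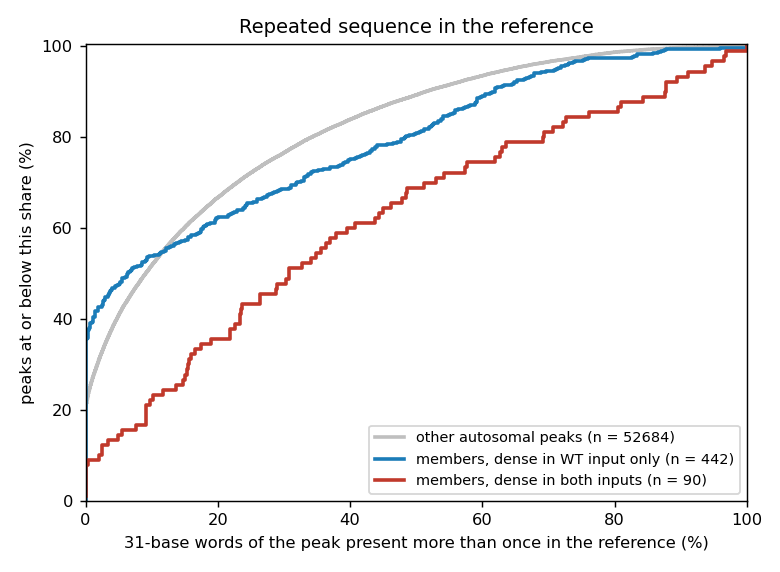
Cumulative share of peaks (vertical axis, percent) by the share of their 31-base words that occur more than once in the reference (horizontal axis, percent). The red curve of the 90 members dense in both inputs lies to the right of the others, with its median at 30.8%, against 6.36% for the 442 members dense in the WT input only.

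The dense members also stood out by position. Of the 90, 19 lay within 100 kb of an assembly gap (21.1%, against 0.930% of all autosomal peaks and 0.905% of the 442), 7 contained gap bases, and 10 lay in the first 1 Mb of sequenced bases of a chromosome (11.1% against 0.692%). At 26 (28.9%, against 8.67%) over 10% of the words were also found on scaffolds not joined to a chromosome. GENCODE exons overlapped 37 of the 90 (41.1%, against 8.41% of all peaks and 4.52% of the 442), and no gene overlapped 31. None of the 532 shared a 31-base word with the mitochondrial genome.

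By the closest gene as deposited, predicted genes named Gm with a number were given at 16 of the 90 (17.8%, against 2.08% of all peaks) and Rik clones at 12 (13.3% against 1.80%). The Rik peaks included runs of 3 neighbouring peaks at *C130026I21Rik* on chromosome 1, each peak counted on its own. Zinc finger genes named Zfp, Zkscan, Zscan or Zbtb, olfactory and vomeronasal receptors, small noncoding RNAs and a list of known multi-copy loci were the closest gene at 0 of the 90. This count follows the deposited names: GENCODE zinc finger genes of these names overlapped 4 of the 90, and the members of the zinc finger cluster on chromosome 4 described below were given as predicted Gm genes or with no gene. Among the 442 these lists gave 2, 4, 6 and 2 peaks, shares of 0.452%, 0.905%, 1.36% and 0.452% that stood against 0.859%, 0.987%, 0.840% and 0.282% of all peaks. None of 21 marker genes of epithelium, immune cells or stroma was the closest gene of a member, and H3K9me3 peaks cannot check the cell type of the isolate.

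Motifs were searched in the central 300 bases on both strands. A pair of adjacent TTAGGG units, the telomere repeat, was found in 0 of the 532 (6 of all autosomal peaks), and the CENP-B box, the motif bound by the centromere protein CENP-B, in 1 of the 90 (8 of all). A run of 6 CA units was present in 2.22% of the 90 and 1.88% of all peaks, and a run of 6 GA units in 0% and 1.11%. The CG dinucleotide was present in 87.8% of the 90, 78.1% of the 442 and 81.1% of all. The ratio of observed to expected CG had a median of 0.237 in the 90, 0.141 in the 442 and 0.153 over all peaks.

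Alignment to the chromosome 9 array of at least 300 bp was found at 10 members, all of them dense in both inputs. They were the 3 peaks of the array itself, chr14:19415251-19420200, chr9:35304751-35306100, chr2:98661751-98665650, chr12:74802901-74805000, chr12:67058701-67060350, chr4:3088801-3091800 and chr3:56574901-56576250, with 74.5% to 84.5% identity in the longest alignment outside chr9:3034501-3039600 itself. Together they held 7013 WT and 6973 KO input reads, of the 25990 and 24305 of all members. Words of 21 bases shared with the array were found in 25 autosomal peaks, of which 15 were dense in both inputs, 1 was dense in the WT input only and 9 were no members.

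Those 9 included 7 peaks further along the same stretch of chromosome 9, between 3054151 and 3077850, whose WT density was 3.33 to 10.0 reads per kb. Peaks that shared words with the array thus included some of ordinary input density. For the ribosomal sequence at least 95% identity was required, a limit not set for the array. It then had 1 relative among the members, chr6:3200551-3202950, which was 98.2% identical to it over 901 bp.

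Members dense in both inputs lay together in several places. The 90 formed 66 stretches when neighbours up to 1 Mb apart were joined, and 56 of these held 1 member. The largest held 8 members each. Stretch chr4:146452201-147544650 holds a cluster of KRAB-type zinc finger genes (*Zfp992*, *Zfp981*, *Zfp988*) and pseudogenes, and its members held 3146 WT and 2885 KO reads. Stretch chr1:84991501-85347300 covers *C130026I21Rik* and *Gm16025*, with 2201 and 2123 reads, a median of 90.3% of words repeated and 82.1% to 100% of words also on unjoined scaffolds. Further stretches were chr9:2999551-3039600 (3 members of the array), chr13:119487751-119611950 at *3110070M22Rik* and *Gm7120* (3 members) and chr16:3231301-3284850 at *AC191865.1* (2 members).

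With neighbours joined at under 10 kb, the 532 formed 512 runs, of which 18 held more than 1 member. Those with the most, 3 each, were chr1:85242301-85300800 and chr1:85078351-85099800, followed by runs of 2 at chr9:2999551-3024150, chr16:3231301-3284850 and chr4:146474551-146541750. All members of these 5 runs were dense in both inputs. Chromosome 1 held the most members (62, or 11.7%, with 10.3% of all autosomal peaks) and the most dense in both inputs (13).

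On the sex chromosomes, which the choice left out, 12 of 545 peaks reached the threshold. The densest was chrX:143482501-143483700 with 125 WT and 117 KO reads, 104 and 97.5 per kb. *Smarcad1* was the closest gene of no peak. The peaks at *Vil1*, whose promoter drives the Cre, and at the metallothionein gene *Mt1* were no members, although the KO input was dense there: *Vil1* held 133 WT and 1111 KO reads over 14100 bp and *Mt1* 23 WT and 127 KO reads over 2100 bp.

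ChIP levels are read counts on the log2 scale, which the authors brought to 1 common distribution in the 6 libraries. At the top of the range all libraries therefore hold the same set of values, and a difference there is a change of rank. To compare peaks of different width, the log2 width in kb was subtracted. On that scale the median WT ChIP level was 5.73 for the 90 members dense in both inputs, 4.49 for the 442 and 3.97 over all autosomal peaks. Of the 442, 80.3% were 300 bp wide, against 6.49% of all autosomal peaks. No level was computed for other peaks of like width, so whether the 442 stood above such peaks was not tested. The ribosomal member had the highest ChIP value of all 53761 peaks in 5 libraries and rank 2 in KO replicate 2, and chr14:19415251-19420200 had rank 3 in 5 libraries and rank 4 in KO replicate 2.

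Relative to input the dense members were close to the median of all peaks. The mean WT ChIP value minus the WT input value had a median of 0.76 on the log2 scale in the 90 and 0.79 over all autosomal peaks, and the KO difference 0.65 and 0.88. This difference has no absolute zero, because ChIP values were matched and input values were not. In the 442 dense in the WT input only it was 0.02 in WT, where the same input chose them, and 1.45 in KO. ChIP read counts were inferred from the rank of each distinct matched value, for ranks up to 100. By this inference the ChIP values of the 442 rested on a median of 6 to 8 reads per library, against 14 to 20 over all autosomal peaks.

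The largest WT excess over input was 2.03 in an exon of *Tmcc1* at chr6:116021551-116022900, a gene for an endoplasmic reticulum protein, with ChIP values of 7.11, 6.48 and 6.62 in WT and 6.95, 6.84 and 6.95 in KO. Next were chr17:13305451-13306800 (1.57), chr3:5860051-5861250 (1.48), chr9:124255801-124258500 (1.43) and the *Smo* member (1.34), all dense in both inputs. The lowest were 5 narrow peaks of 9 to 12 WT and 1 to 2 KO input reads, chr13:66310201-66310500 (-1.05), chr12:50759851-50760150 (-0.96), chr8:112778101-112778550 in an intron of the neuronal gene *Cntnap4* (-0.92), chr12:47633101-47633400 (-0.90) and chr4:73198501-73198800 (-0.88). At these 5 the KO excess over the KO input was 2.02 to 3.46, a contrast that their choice by a high WT and the division by a low KO input partly fixes.

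A single library stood apart at the dense members. KO replicate 2 was the lowest of the 6 ChIP libraries at 51 of the 90 (56.7%), against 17.8% of all autosomal peaks and 17.4% of the 442. Its median deviation from the mean of the 6 libraries was -0.18 at the 90, where the other libraries ran from -0.03 (WT replicate 3) to 0.11 (WT replicate 1). Values without it are given below for the groups of dense members and for the calls, and its part in the results beyond these values was not tested.

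**Figure D3:**
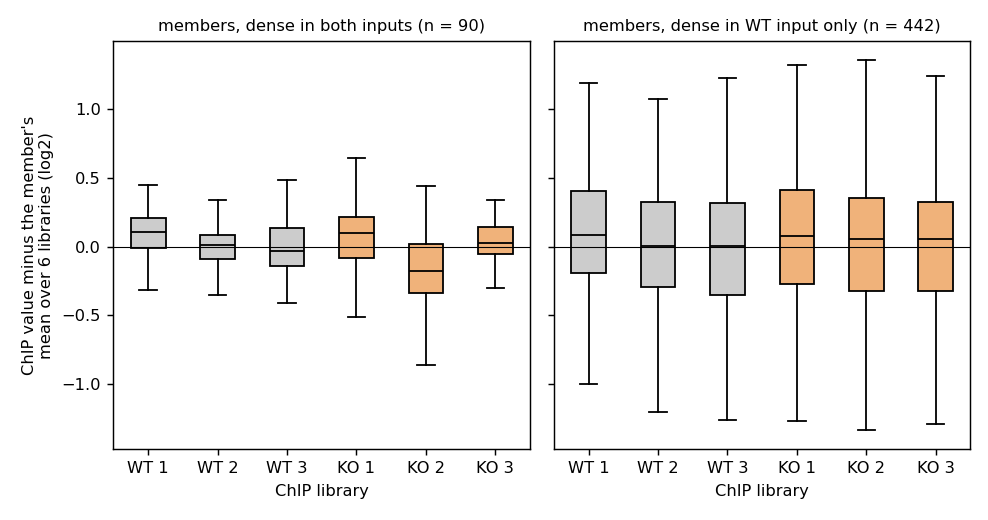
Deviation of each ChIP library from a member's mean over the 6 libraries (log2, vertical axis) for the 90 members dense in both inputs (left) and the 442 dense in the WT input only (right). Lines are medians, boxes quartiles and whiskers reach up to 1.5 times the box, with points beyond not drawn; KO 2 lies lowest on the left with a median of -0.18.

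KO was compared with WT at every peak with limma, and 6 of the 532 members (1.13%) passed an adjusted p of 0.05, against 1.66% of all 53761 peaks. All 6 fell in KO, as did 0.863% of all peaks, and 0 rose, against 0.796%. Among the 532 peaks chosen by the KO input instead, 2 rose and 4 fell. At an unadjusted p under 0.05 there were 30 lower and 10 higher members (7.52%, against 10.6% of all peaks). KO and WT values did not overlap at 58 members (10.9%, against 15.6%), 32 with KO above (7.2% of all peaks) and 26 with KO below (8.42%). The median difference over the members was -0.02 and over all autosomal peaks 0.00 on the log2 scale. The share of calls differed between both sets of members. It was 0.452% (2 of 442) at the members dense in the WT input only and 4.44% (4 of 90) at those dense in both inputs, where 19 were lower and 5 higher at an unadjusted p under 0.05 (26.7%). A separate fit used only peaks with a mean ChIP value of at least 4, where 89 members remained. It called 7 of them, 6 lower and 1 higher (7.87%, against 3.21% of the autosomal peaks in that fit). In the main fit over all peaks, 12.9% of the 31 members dense in both inputs with a mean of 8 or more were called. The share was 11.2% of the 205 other autosomal peaks at that level. Between 6 and 8 it was 0 of 39 such members and 10.8% of the other peaks. These shares are counts over peaks of unequal ChIP level, and whether they differ was not tested.

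The 4 called members dense in both inputs follow. At chr2:98661751-98665650 (*Gm10801*), which carries the satellite-like stretch printed above, WT values were 11.55, 11.28 and 11.21 and KO values 11.02, 10.77 and 11.17. Every KO library was below every WT library, and the difference was -0.36 ± 0.09 (SE, n = 3 and 3, limma adjusted p = 0.0104). At chr9:2999551-3007950 (*Gm10722*), the start of the array, WT values were 11.02, 10.65 and 10.65 and KO values 10.65, 10.21 and 10.45, and the difference was -0.33 ± 0.09 (limma adjusted p = 0.0431). Here the highest KO value equalled the lowest WT values to 2 decimals.

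At chr9:124255801-124258500, a tandem repeat with a period of 31 bases at a gap near the end of chromosome 9, WT values were 8.88, 8.85 and 8.84 and KO values 8.59, 8.21 and 8.62. The groups did not overlap, with a difference of -0.38 ± 0.10 (limma adjusted p = 0.0366). At chr13:12925051-12933000, with no GENCODE gene, WT values were 8.49, 8.70 and 8.64 and KO values 8.20, 7.88 and 8.30, which is the clearest of the 6 by p (-0.48 ± 0.11, limma adjusted p = 0.0059). KO replicate 2 was the lowest library at all 4.

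The other 2 calls were dense in the WT input only. At chr15:103887601-103890150, WT values were 5.82, 6.20 and 6.21 and KO values 5.24, 5.08 and 5.86, with KO replicate 3 above WT replicate 1 (-0.69 ± 0.19, limma adjusted p = 0.0412). At chr7:30472201-30473100 in an intron of *Nphs1*, which encodes the podocyte protein nephrin, WT values were 3.77, 4.60 and 4.49 and KO values 3.57, 2.32 and 3.18 (-1.26 ± 0.35, limma adjusted p = 0.0497). This last peak is the one at the edge of the threshold, with 17 WT and 3 KO input reads.

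These calls depended on single libraries. Without KO replicate 2 only 1 member was called, the one at *Gm10801* (0.188%, against 1.24% of all autosomal peaks). Without WT replicate 1 there were 3 calls (0.564% against 1.17%), and without KO replicate 3 there were 16 (3.01% against 1.51%). In the 6 fits that each left out 1 library, the members at *Gm10801*, *Gm10722* and chr13:12925051-12933000 were called in 4 and the others in 2. The *Nphs1* member also missed the threshold with centred libraries, quantile normalization, a replicate block and a prior without a trend (limma adjusted p of up to 0.314). With a prior without a trend 0 members passed, against 0.239% of all autosomal peaks, with 30 members lower and 25 higher at an unadjusted p under 0.05.

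**Figure D4:**
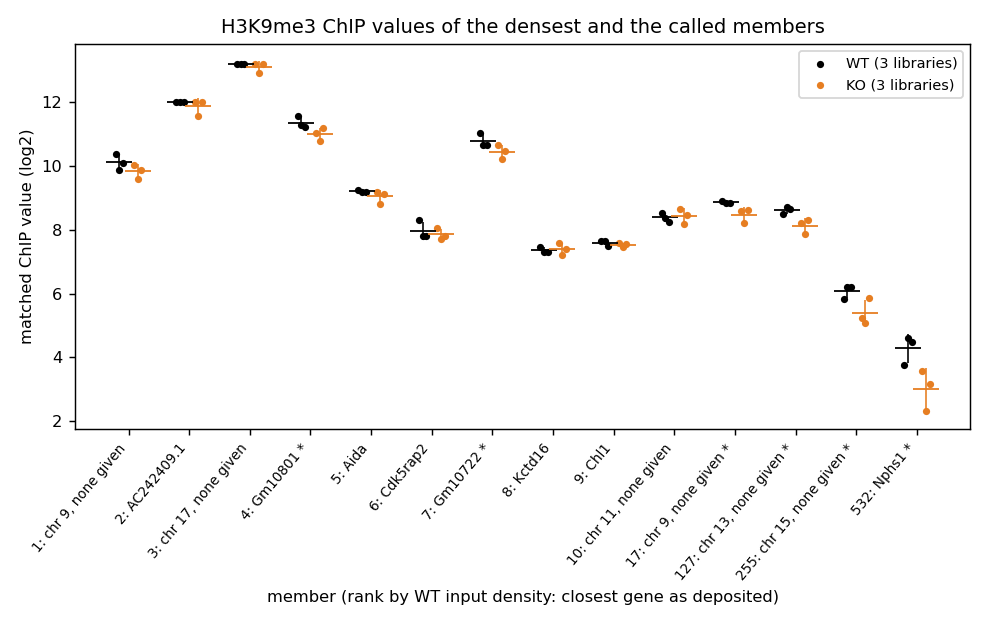
Matched ChIP values (log2, vertical axis) of the 10 densest members and the other called members, ordered by rank of WT input density, with each library as a point, the mean as a dash and the SD as a bar (n = 3 per genotype). An asterisk marks the 6 called members, all with the KO mean below the WT mean; at rank 3, the ribosomal member, 5 of the 6 values are 13.2.

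The remaining 8 of the 10 densest members did not pass. At the ribosomal member the values were 13.2 in all WT libraries and 13.2, 12.92 and 13.2 in KO (-0.09 ± 0.07, limma adjusted p = 0.688), so the groups differed by 1 exchange of ranks in KO replicate 2, with the wide peak chr13:113807101-114040200. At chr14:19415251-19420200 they were 12.01 in all WT libraries and 12.01, 11.55 and 12.01 in KO (-0.15 ± 0.08, limma adjusted p = 0.515). At chr9:35304751-35306100 WT values were 10.38, 9.86 and 10.08 and KO values 10.03, 9.58 and 9.86 (-0.28 ± 0.10, limma adjusted p = 0.193). Differences at *Aida* (-0.16), *Cdk5rap2* (-0.11), *Chl1* (-0.06), *Kctd16* (0.04) and the chromosome 11 member (0.04) had adjusted p-values of 0.61 to 0.959.

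Among the 10 members aligned to the chromosome 9 array, KO was lower at 8, with a median of -0.23 and a range from -0.36 to 0.20. Of the 10, 2 were called (20%, against 1.66% of all peaks), and 6, all lower, had an unadjusted p under 0.05 (60%, against 10.6%). Their median WT ChIP value was 9.72, against 4.08 over all autosomal peaks. Among autosomal peaks that were no members, 11.2% were called at a mean of 8 or more and 10.8% between 6 and 8. Whether the 10 differ from peaks of like level was not tested. Without KO replicate 2 the median was -0.13 with KO still lower at 8 and 1 called, and without WT replicate 1 it was -0.13 with 0 called. These fits called 1.24% and 1.17% of all autosomal peaks. WT replicate 1 was the highest and KO replicate 2 the lowest library by median deviation at these 10 (0.31 and -0.33). These peaks were chosen for shared sequence, with 9.69% to 96.8% of their words repeated in the reference, and how far their reads could be placed apart was not tested.

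Over the 90 members dense in both inputs the median difference was -0.05, with 51 lower in KO, and without KO replicate 2 it was 0.03, with 41 lower. The sign differed with the ChIP level, a division made after the values were seen, and whether the levels differ was not tested. At a mean of 8 or more, 29 of 31 were lower in KO with a median of -0.23, against 62.9% of the 205 other autosomal peaks at that level with a median of -0.08. These 31 included neighbours from the same stretch, such as the 3 members of the chromosome 9 array, each counted on its own. Between 6 and 8, 15 of 39 were lower with a median of 0.09, against 57.5% and -0.05 for the others, and between 4 and 6 it was 0 of 7. Without KO replicate 2 the median at 8 or more was -0.09, with 26 of 31 lower, against -0.06 for the other peaks. Between 6 and 8 it was then 0.12, with 8 of 39 lower, against -0.03.

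**Figure D5:**
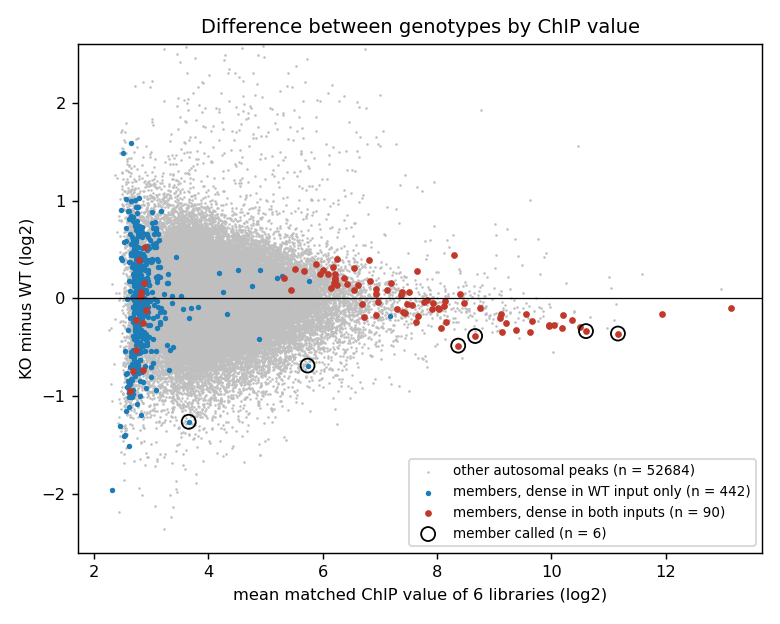
KO minus WT (log2, vertical axis) against the mean matched ChIP value of the 6 libraries (log2, horizontal axis) for autosomal peaks, with members in colour and the 6 called members circled. Red points at a mean of 8 or more lie below 0 at 29 of 31 peaks; 23 peaks beyond 2.6 in either direction, none of them members, are not drawn.

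In the stretches of several dense members on chromosomes 4, 1, 16, 17 and 13 none passed the test. The 8 dense members of the zinc finger stretch on chromosome 4 were all lower in KO (median -0.23, and -0.13 without KO replicate 2, again with 8 lower). The values at chr4:146474551-146503200 were 10.34 in all WT libraries and 10.00, 9.84 and 10.28 in KO, without overlap (-0.30 ± 0.09, limma adjusted p = 0.0722). On chromosome 1, 6 of 8 were lower with a median of -0.18, and without KO replicate 2 it was 5 with a median of -0.03. At chr1:85267351-85300800 WT values of 10.55, 10.55 and 10.84 overlapped KO values of 10.45, 9.94 and 10.65 (-0.30 ± 0.10, limma adjusted p = 0.174).

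Both members at *AC191865.1* on chromosome 16 were lower (-0.32 and -0.35, and -0.13 and -0.15 without KO replicate 2), as was chr17:13540051-13553700 near *Tcte2*, with WT values of 9.34, 9.27 and 9.32 and KO values of 9.23, 8.73 and 8.94 (-0.34 ± 0.10, limma adjusted p = 0.0679, and -0.22 without KO replicate 2). The opposite direction was seen at the 3 members on chromosome 13 at *3110070M22Rik* and *Gm7120* (0.28 to 0.44, and 0.25 to 0.43 without KO replicate 2), whose words were repeated in the reference at a median of 3.40%. There chr13:119595751-119603550 had 7.85, 8.12 and 8.28 in WT and 8.88, 8.62 and 8.07 in KO (0.44 ± 0.13, limma adjusted p = 0.0633). Its scaled input ratio was 1.27 (1.07 to 1.51), and the part of the input in this difference was not tested. Both members of the stretch chr16:10974601-11144850 at *Litaf* and *Zc3h7a* were also higher in KO (0.09 to 0.21, and 0.11 to 0.17 without KO replicate 2).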

How the data were processed

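H3K9me3 ChIP-seq of colon crypt isolates was analysed from 1 deposited table of peaks in 6 ChIP and 2 input libraries (GRCm38). Per the labels, the authors trimmed reads with Trim Galore (0.6.1; the methods give an older version), aligned them with Bowtie2 (2.3.2) and called peaks with MACS. Per the methods, reads under a mapping quality cutoff and duplicates were removed, which can take reads from repeated sequence. The methods describe paired-end reads and the labels single-end reads. ChIP columns were deposited as log2 counts after the authors matched their distributions, and input columns as unmatched log2 counts, in which 0 and 1 read are the same. The authors' table of edgeR calls was not used.

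Members and lists were chosen with earlier results of these data known. The named peaks were the 10 densest, the called members, and the 5 highest and lowest for the input ratio (at least 50 WT reads) and for ChIP minus input. KO and WT were compared with limma (3.58.1, R 4.3.3, trended prior) over all 53761 peaks with Benjamini-Hochberg adjustment. The fit was tested on simulated data. Input ratios carry exact 95% intervals for counting error only. Sequences were read from the GRCm38.p6 RefSeq genome, with words of 31 bases, and aligned with blastn (2.17.0, at least 300 bp, E up to 1e-20). Alignments to the ribosomal member also needed at least 95% identity. Genes came from GENCODE vM21 and RefSeq. Alternatives were another prior, filter, centring, quantile normalization, a replicate block, other choices of members, other input scaling, shorter words and leaving out each library.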

Additional observations from a re-analysis of the deposited data

How the results depend on the processing

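Against the 6 called members, 0 passed limma's threshold with a prior without a trend (25 higher and 30 lower at an unadjusted p under 0.05), 3 calls were made with centred libraries and 1 at an adjusted p under 0.01, and leaving out 1 library each gave 1 to 16 (1 without KO replicate 2, 16 without KO replicate 3, 3 without WT replicate 1). Of all autosomal peaks, 0.239% were called with the prior without a trend and 1.61% with centred libraries. Without WT replicate 1, KO replicate 2 or KO replicate 3 the shares were 1.17%, 1.24% and 1.51%. The main fit called 1.66% of all autosomal peaks. With other choices of members the calls were 2 of 9 (at least 50 WT reads), 10 of 469 (at least 600 bp wide) and 3 of 106 (top 0.2%). Chosen by KO input, 6 of 532 were called, 2 higher and 4 lower. By the density of both inputs it was 8 of 532, 2 higher and 6 lower. The pooled input ratio of 0.992 became 1.22 when chosen by KO input, 1.11 by both inputs, 1.13 with at least 50 reads, 0.944 with at least 600 bp, 1.08 for the top 0.2%, 1.02 with scaling by the median ratio and 0.935 without scaling. The median WT ChIP minus input of 0.09 became 1.19, 0.41 and 0.76 for the first 3 of these choices and 0.28 for the top 0.2%, and the median difference of -0.02 became -0.15 with at least 50 reads. Words of 21 bases raised the share of dense members with over 50% repeated words from 31.1% to 52.2%. The cause of these changes was not tested.

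Leaving out 1 library turned the sign at *Cdk5rap2* (-0.21 to 0.0542, above 0 without WT replicate 1), *Kctd16* (-0.0625 to 0.13, below 0 without KO replicate 1) and chr11:109011151-109012500 (-0.0715 to 0.18, below 0 without KO replicate 1 or WT replicate 3, -0.02), none of them called. The deviations of same-numbered WT and KO libraries were nearly uncorrelated over all peaks (-0.00126, 0.0191 and 0.0164). For libraries of different number the correlations ran from -0.0235 to 0.00745. The labels do not say whether the numbers mark pairs, and these correlations cannot decide it. With a replicate block 8 members were called, 7 of them dense in both inputs. The divisions by ChIP level, by alignment to the array and by density in both inputs were chosen after seeing the data. With 1 input per genotype no input difference has a replicate check, and at 300 bp a few reads decide membership.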
